A study of Mus musculus with 6 samples.

Results

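The Hox genes of the Hoxa, Hoxb, Hoxc and Hoxd clusters were followed in embryonic mouse hearts with and without Arid3b, cluster by cluster and by paralogue number. Members were all genes whose mouse symbol is Hoxa, Hoxb, Hoxc or Hoxd followed only by a number. There were 39 of them among 20021 gene symbols on the array, read by 43 probes, and 25 of the 39 passed the filter on dim probes and entered the fit over 21800 genes. The series compared wild-type embryos with Arid3b-null embryos at embryonic day 9.5, in 3 pools per genotype with 4 embryos in each pool. Arid3b encodes an ARID-domain DNA-binding protein. The tissue was the heart tube together with the mesoderm and endoderm of the pharynx that lie under it, so each pool held several tissues. The labels give no background strain, no description of the null allele and no somite counts.

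Hox genes encode homeodomain transcription factors that give cells their position along the head-to-tail axis. Within a cluster, genes with low numbers lie at the 3' end and are switched on earlier and further forward, and genes with high numbers lie at the 5' end and are switched on later and further back. In the region sampled here, 3' Hox genes are known in the hindbrain, the neural crest that enters the pharyngeal arches, the pharyngeal endoderm and the part of the second heart field that builds the outflow tract and the atria. The Hox genes numbered 9 and above, the relatives of fly Abdominal-B, act mainly in the trunk, limbs and tail. ARID3 proteins carry a DNA-binding domain shared with fly Dead ringer, which binds AT-rich words.

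Levels are log2 signals relative to the 75th percentile of the array, so 0 marks that percentile and negative values are dimmer. Arid3b itself, read by its brightest probe, had levels of 2.91, 3.40 and 3.69 in the wild-type pools and 1.08, 0.52 and 0.45 in the null pools. The groups lay apart in the labelled direction, by -2.65 (SE 0.26; limma, adjusted p = 0.00194). Between 27136 and 31039 of 43020 spots were well above background on an array, and none was saturated. All 10 heart muscle markers were well above background on all 6 arrays. The wild-type arrays had 75th percentiles of 9.5, 9.57 and 10.16 (log2), and those of null pools 1, 2 and 3 were 9.47, 9.29 and 9.02, so a dim spot of equal brightness reads higher on a null array once scaled. Each slide held 1 wild-type array, in place 3, and 1 null array, in place 4, so place and genotype cannot be told apart. The precision is limited by 3 arrays a group, and p-values measure the spread between these pools. Because the tissue was taken in bulk, more cells of a type and more RNA per cell cannot be told apart.

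The promoters of the 3 members that passed the test, Hoxd8, Hoxb8 and Hoxd1, are shown first, since these genes carry the only called differences among the Hox genes. Each is the 250 bases before the annotated start in RefSeq (GRCm38.p6, plus strand), at chr2:74704365-74704614 for Hoxd8, chr11:96281655-96281904 for Hoxb8 and chr2:74762730-74762979 for Hoxd1. Capitals mark every CCAAT and every AATTAA or GATTAA on either strand, the last pair being the words bound by fly Dead ringer.
Hoxd8: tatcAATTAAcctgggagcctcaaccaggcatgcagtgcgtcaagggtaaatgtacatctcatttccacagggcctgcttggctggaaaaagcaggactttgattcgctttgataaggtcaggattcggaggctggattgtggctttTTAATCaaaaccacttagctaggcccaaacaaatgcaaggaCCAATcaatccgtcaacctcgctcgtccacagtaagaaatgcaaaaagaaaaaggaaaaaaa
Hoxb8: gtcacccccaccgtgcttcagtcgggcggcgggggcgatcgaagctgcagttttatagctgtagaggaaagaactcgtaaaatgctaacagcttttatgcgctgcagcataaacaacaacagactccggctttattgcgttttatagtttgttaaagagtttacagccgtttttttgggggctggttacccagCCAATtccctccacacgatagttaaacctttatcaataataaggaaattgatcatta
Hoxd1: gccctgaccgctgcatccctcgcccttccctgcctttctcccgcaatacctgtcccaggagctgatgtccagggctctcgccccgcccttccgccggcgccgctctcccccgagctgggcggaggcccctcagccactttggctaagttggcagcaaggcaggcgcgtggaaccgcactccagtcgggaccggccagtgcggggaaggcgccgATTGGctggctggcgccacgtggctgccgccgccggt
The Hoxd8 window holds 2 AATTAA or GATTAA words and the Hoxb8 and Hoxd1 windows hold none, while each of the 3 holds 1 CCAAT. Bases that are G or C make up 44.4% of the Hoxd8 window, 44.4% of the Hoxb8 window and 71.6% of the Hoxd1 window. Windows were given for 22 of the 39 members, 24 windows in all. AATTAA or GATTAA was in 6 of these 24 (25%) and in 15.4% of 32851 windows of all genes. CCAAT was in 14 of the 24 (58.3%) and in 33.8% of all windows. TGATNNAT, the word bound jointly by Hox proteins and their PBX partners, was in 4 of the 24 (16.7%), among them the Hoxb8 window, and in 7.68% of all windows. Overlapping matches were counted for each word separately on both strands, and a match is only a run of letters.

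Detection fell with the numbers along the clusters by band, though not in strict order within a cluster. A member counted as detected on an array where at least 1 of its probes was well above background there, and a probe printed 10 times had to be so on at least 5 of its spots. All 12 members numbered 1 to 4 were detected on all 6 arrays, and with the 3 members numbered 5 the count was 15 of 15. Of the 11 members numbered 5 to 8, 5 were detected on all 6 arrays, 5 on some and 1 on none. Of the 16 members numbered 9 to 13, none was detected on all 6 arrays, 6 were on some and 10 on none. Hoxa9 and Hoxc12 were detected on 5 arrays each and Hoxa13 on 3. The lower-numbered Hoxc8 and Hoxc11, and Hoxa10 and Hoxa11, were detected on none. Detection also depends on the probe, so absence of signal is a bound and not proof of absence.

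Over all 39 members, 17 were detected on all 6 arrays, 11 on some and 11 on none. The number detected on an array was 24, 23 and 23 in wild type and 23, 24 and 22 in null, so the genotypes held nearly the same number. By cluster, 6 of 11 Hoxa genes, 6 of 10 Hoxb genes, 2 of 9 Hoxc genes and 3 of 9 Hoxd genes were detected on all 6 arrays. The Hoxc cluster has no members numbered 1 to 3 in the mouse, so its small count covers a shorter 3' end.

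**Figure D1:**
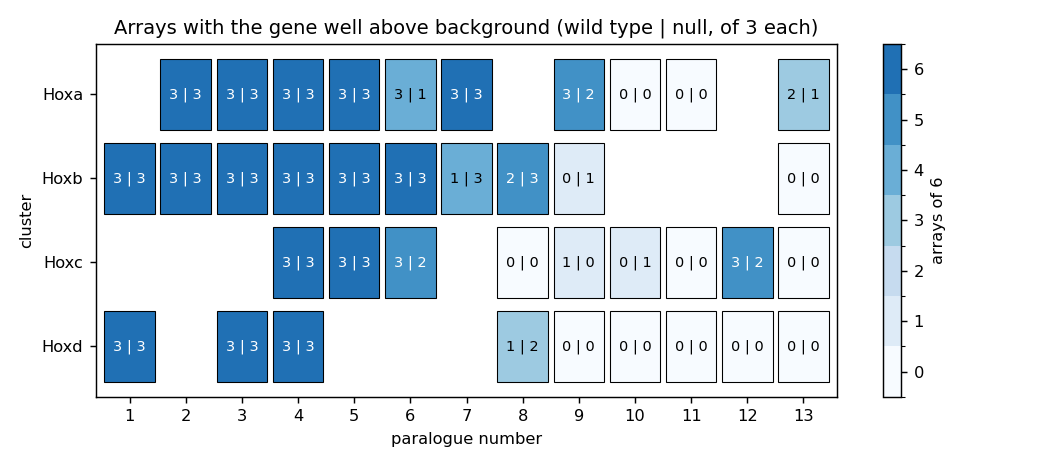
Detection of Hox genes on the 6 arrays, by cluster and paralogue number. Empty positions hold no gene or are not shown. All members drawn with numbers 1 to 5 were detected on all 6 arrays, and no member numbered 9 to 13 was.

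The 11 members detected on no array were Hoxa10, Hoxa11, Hoxb13, Hoxc8, Hoxc11, Hoxc13, Hoxd9, Hoxd10, Hoxd11, Hoxd12 and Hoxd13. Genes of this kind pattern the hind trunk, limb and genital bud. With no probe well above background on any array, no difference is given for any of the 11. The Hoxa11 probe is printed 10 times on the array, and on null pool 2 a single spot of the 10 was well above background.

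Of the 25 members tested, 3 were higher in the null pools and 0 were lower at an adjusted p under 0.05 (limma, Benjamini-Hochberg over 21800 genes). At an unadjusted p under 0.05 the counts were 4 higher and 2 lower. Over all genes tested, 2279 passed, which is 10.5% of them, with 6.64% higher and 3.81% lower. The 3 of 25 Hox genes is close to that share. Among the 25 members, 6 had pools with no overlap between groups, 4 higher and 2 lower, beside 32.9% of all genes tested. When 1 pool was left out, the limma count was 0 without wild-type pool 3 (2 higher and 2 lower at an unadjusted p under 0.05) and 0 without null pool 2 (5 higher and 1 lower). It was 1 without wild-type pool 1 (Hoxd8), null pool 1 (Hoxb5, lower) or null pool 3 (Hoxd8), and 2 without wild-type pool 2 (Hoxb8 and Hoxd8). The passing members over all 6 arrays were Hoxd8, Hoxb8 and Hoxd1, and they were among the dimmest members.

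Hoxd8, a central Hoxd gene of the trunk, had levels of -7.15, -7.61 and -7.05 in wild type and -5.84, -5.88 and -5.62 in null. All null pools lay above all wild-type pools, and the deposited signals, 3.87 to 8.61 in wild type and 10.6 to 12.5 in null, did not overlap either. The difference was 1.49 (SE 0.20), or 2.81-fold, with a 95% interval of 1.03 to 1.95 and adjusted p = 0.00568 (limma). The probe was well above background on 1 wild-type and 2 null arrays, so it passed the filter by the fewest arrays allowed. It no longer entered the test when wild-type pool 3 was left out, nor when either of null pools 1 and 2 was. It rose by 1.31, 1.73 and 1.43 within slides 1, 2 and 3.

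Hoxb8, a central Hoxb gene known in the trunk, spinal cord and blood progenitors, had levels of -6.40, -4.71 and -5.66 in wild type and -3.96, -4.04 and -3.48 in null. The groups did not overlap, and wild-type pool 1 was the lowest and pool 2 the nearest to the null pools. The probe was well above background on 2 wild-type and all 3 null arrays, and not on wild-type pool 1. The difference was 1.76 (SE 0.41), or 3.40-fold, with an interval of 0.82 to 2.71 and adjusted p = 0.0366 (limma). Deposited signals were 8.56, 28.9 and 22.5 in wild type and 45.6, 38.0 and 46.5 in null. The difference within slides was 2.44, 0.67 and 2.18. Leaving out wild-type pool 1 or 3, or any 1 null pool, gave limma adjusted p of 0.0520 to 0.102, while without wild-type pool 2 it was 0.0210.

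Hoxd1, a 3' Hoxd gene best known in sensory neurons, had levels of -5.0, -4.80 and -5.94 in wild type and -3.90, -4.14 and -3.37 in null. Null pools again lay above wild-type pools without overlap. The difference was 1.44 (SE 0.34), or 2.72-fold, with an interval of 0.65 to 2.24 and adjusted p = 0.0385 (limma). Within slides it was 1.10, 0.66 and 2.58. Leaving out any 1 of the 6 pools ended the call, with adjusted p of 0.0539 to 0.105. Blocking on the slide gave a limma adjusted p = 0.0905. With no scaling between arrays, an alternative chosen after seeing the data, no Hox gene passed (limma; 3 higher and 8 lower at an unadjusted p under 0.05), and the differences were 1.01 for Hoxd8, 1.28 for Hoxb8 and 0.96 for Hoxd1. With the normexp background they were 0.55, 0.82 and 0.76, and Hoxd8 lost its call.

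**Figure D2:**
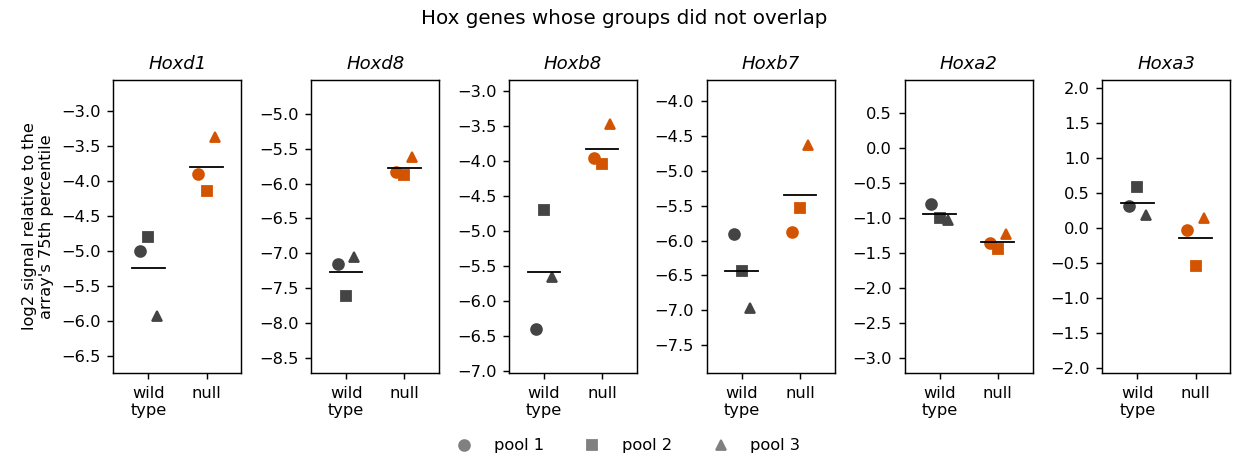
Levels in each pool of members described in the text, log2 signal relative to the array's 75th percentile, each panel spanning the same log2 range with its own offset. For Hoxd8, Hoxb8 and Hoxd1 the 3 null pools lie above the 3 wild-type pools.

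Hoxb7, the neighbour of Hoxb8, lay apart in its pools but did not pass. Its levels were -5.90, -6.43 and -6.96 in wild type and -5.88, -5.54 and -4.64 in null. The nearest wild-type and null pools, -5.90 and -5.88, were almost equal. The difference was 1.08 (SE 0.38; limma, adjusted p = 0.120). Its probe was well above background on 1 wild-type and all 3 null arrays. With the dim members, passing the filter depends partly on being brighter in a group.

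Other members lay lower in the null pools, none past the test. Hoxa2, which gives the second pharyngeal arch its identity, had levels of -0.80, -1.01 and -1.03 in wild type and -1.36, -1.45 and -1.23 in null. Groups did not overlap, and the difference was -0.40 (SE 0.16; limma, adjusted p = 0.153). Hoxa3, needed for thymus and parathyroid formation in the pharynx, had levels of 0.32, 0.59 and 0.19 in wild type and -0.03, -0.54 and 0.14 in null. These also did not overlap, and the difference was -0.51 (SE 0.22; limma, adjusted p = 0.194).

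The lowest difference in the Hoxa cluster was that of Hoxa4, at -2.92, -2.79 and -1.77 in wild type and -1.97, -3.65 and -4.25 in null. Its pools overlapped, and the difference of -0.80 (SE 0.58) did not pass (limma, adjusted p = 0.432). In the Hoxb cluster it was Hoxb5, at -1.39, -1.10 and -1.07 in wild type and -1.31, -2.37 and -1.96 in null. Null pool 1 lay inside the wild-type range, and the difference was -0.70 (SE 0.28; limma, adjusted p = 0.157). Without null pool 1 it passed, at -0.98 (limma, adjusted p = 0.0380).

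In the Hoxc cluster it was Hoxc4, at -0.58, -0.62 and -0.93 in wild type and -1.14, -1.40 and -0.56 in null, a difference of -0.32 (SE 0.24; limma, adjusted p = 0.442). In the Hoxd cluster it was Hoxd4, at -1.58, -0.52 and -0.24 in wild type and -0.94, -2.16 and -0.40 in null, a difference of -0.39 (SE 0.50; limma, adjusted p = 0.673). Both sets of pools overlapped.

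On the side of higher values, Hoxc5 had levels of -3.49, -3.94 and -4.10 in wild type and -3.37, -3.65 and -2.36 in null, a difference of 0.71 (SE 0.35; limma, adjusted p = 0.239). Null pool 3 alone lay well above the wild-type pools for Hoxc5.

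Hoxb1, which marks a single hindbrain segment and the posterior second heart field, had levels of -1.78, -0.74 and -0.64 in wild type and -1.05, -2.04 and -1.78 in null. The difference was -0.57 (SE 0.37; limma, adjusted p = 0.378). Its probe is printed 10 times, and the SD over the spots of an array was 0.03 to 0.10, against SDs of 0.63 and 0.51 between pools. Repeat spots cover the noise of spots only, not that of labelling or hybridisation. Where a gene had more than 1 tested probe, the second gave -0.51 beside -0.49 for Hoxb3 and 0.05 beside -0.44 for Hoxa9.

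The remaining 12 tested members, Hoxa5, Hoxa6, Hoxa7, Hoxa9, Hoxa13, Hoxb2, Hoxb3, Hoxb4, Hoxb6, Hoxc6, Hoxc12 and Hoxd3, overlapped between groups and did not pass. Their differences ran from -0.49 for Hoxb3 to 0.63 for Hoxa7, with limma adjusted p of 0.201 to 0.992. Hoxb4 and Hoxb6, both seen on all 6 arrays, were at -0.15 and 0.07. Hoxc6 and Hoxa13 had the widest spread between null pools among these 12, with SDs of 1.54 and 1.23.

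**Figure D3:**
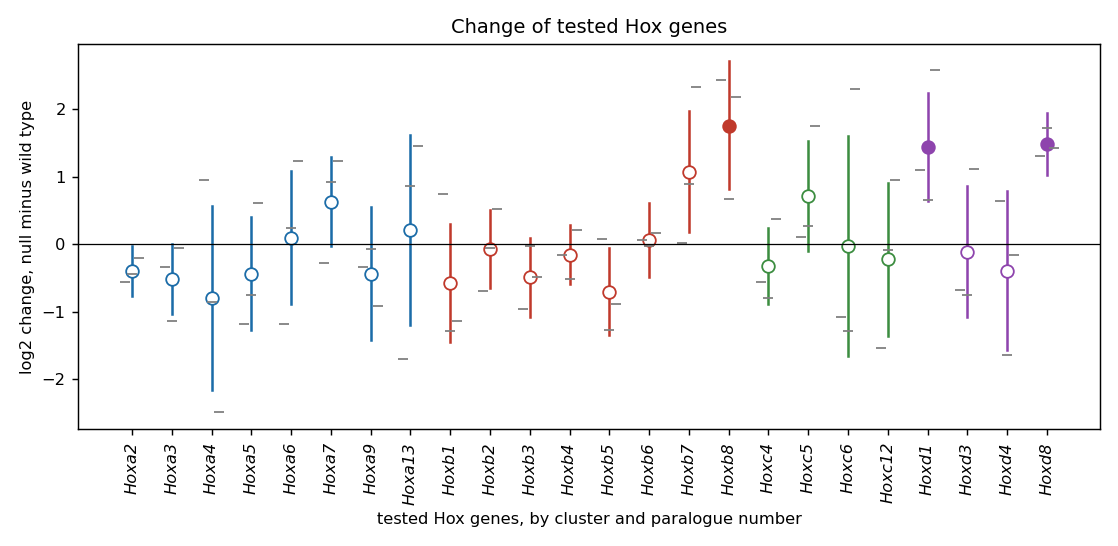
Log2 difference, null minus wild type, for tested Hox genes in order of cluster and paralogue number. Bars are 95% intervals, filled points passed the limma test, and grey dashes are the differences within slides 1 to 3. Hoxd8, Hoxb8 and Hoxd1 are the filled points.

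As lists, the members did not move one way. The median difference over the 25 was -0.11, with 10 above 0 and 15 below, beside 0.03 over all genes tested. By slide it was -0.27, -0.08 and 0.62 for the Hox genes and -0.11, 0.09 and 0.13 for all genes. The median was -0.40 for the 9 tested Hoxa genes, -0.11 for 8 Hoxb genes, -0.12 for 4 Hoxc genes and 0.67 for 4 Hoxd genes. Each of these is a median over few neighbouring genes.

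Along the axis, 10 of the 12 members numbered 1 to 4 were below 0, with a median of -0.36, and 7 of the 10 numbered 5 to 8 were above 0, with a median of 0.37. The 3 tested members numbered 9 to 13 had a median of -0.22. All 7 members numbered 3 or 4 were below 0, and the pair numbered 8 were at 1.49 and 1.76. By slide the median of members 1 to 4 was -0.25, -0.63 and 0.09, and that of members 5 to 8 was 0.05, 0.27 and 1.33. Slide 3 was the highest for both.

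Across the 25 genes, difference and paralogue number had a Spearman rho of 0.30 (Pearson r 0.19), with values of -0.21, 0.46 and 0.29 on slides 1, 2 and 3. These points share the same 6 arrays and are neighbours in clusters. Restricted to the 17 members well above background on all 6 arrays, rho was -0.04. Of the members numbered 5 to 8, 8 of 10 were among the dimmest 7267 of all genes tested, as was 1 of the 12 numbered 1 to 4.

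Probe brightness went with the sign of the difference. Difference and mean level had a Spearman rho of -0.41 across the Hox genes and -0.07 across all genes tested. Of the tested members, 12 were in the dimmest of 3 equal classes of all genes tested, 10 in the middle class and 3 in the brightest. The 12 had a median of 0.42 and held all 3 called members, the 10 had a median of -0.44 and held none, and the 3 had a median of -0.07. Over all genes, 12.8% of the dimmest class, 11.8% of the middle and 6.77% of the brightest were called. The part of brightness in these differences was not tested.

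**Figure D4:**
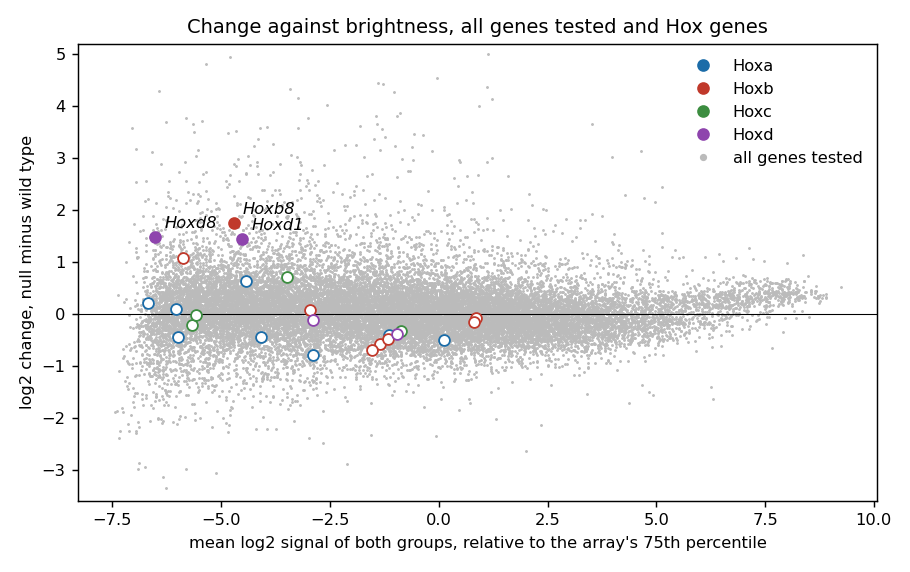
Log2 difference, null minus wild type, against mean level for tested Hox genes over the spread of all genes. The 3 called members, Hoxd8, Hoxb8 and Hoxd1, lie in the dimmest class.

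Several Hoxc genes stood apart on null pool 3. Hoxc10, a hind-trunk gene, was at -4.93 there and between -9.63 and -8.61 on the other 5 arrays, with a deposited signal of 17 against 1.42 to 1.6. Hoxc6, a gene of the chest region, was at -3.83 on that array, against -6.33 and -6.64 on the other null arrays and -5.25, -5.36 and -6.13 in wild type. Hoxc5 was also highest there. Outside this cluster Hoxd3 was at -1.89 on null pool 3 and at -3.55 and -3.35 on the other null arrays.

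Hoxc9 was well above background on wild-type pool 1 alone, at -6.36. Hoxb9 was well above background on null pool 1 alone, with levels of -6.37, -6.78 and -6.53 in null and -7.95, -7.97 and -7.57 in wild type. These members were kept out of the test by the filter on dim probes. With no filter, Hoxb9 passed at 1.27 (SE 0.21; limma, adjusted p = 0.0293), though not well above background on 5 of the 6 arrays, while Hoxc10 at 1.74 (SE 0.99; adjusted p = 0.291) and Hoxc9 at -0.14 (SE 0.79; adjusted p = 0.930) did not. In that fit 13 of the 39 members were higher and 0 lower at an unadjusted p under 0.05 (limma). Members detected on no array were among the 13, so a rise at this brightness is not particular to Hoxb9.

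**Figure D5:**
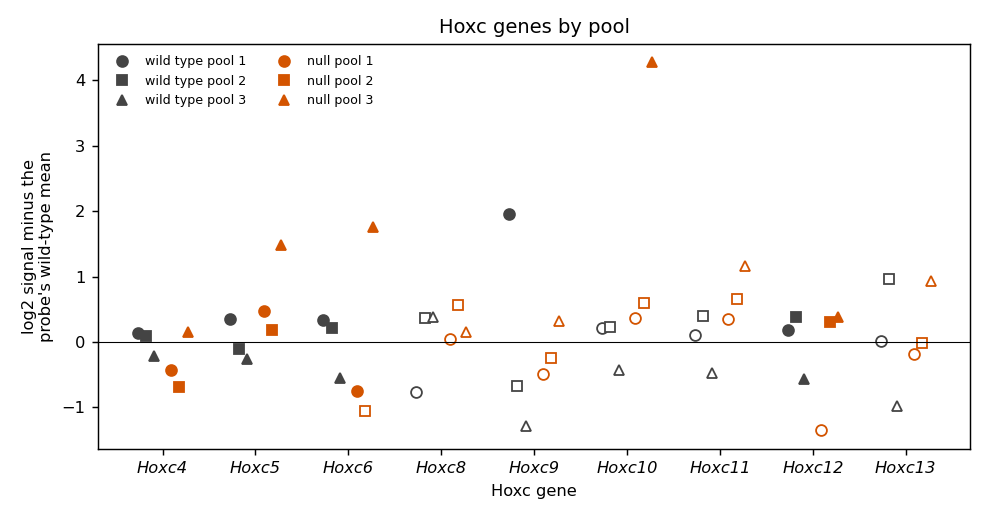
Level of each Hoxc gene in each pool, minus the probe's wild-type mean (log2). Filled points were well above background. Null pool 3 is high for Hoxc5, Hoxc6 and Hoxc10.

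The genes next to the clusters were read for comparison, 3 coding neighbours on each side. All were tested except Evx1, Evx2, Calcoco2, Atf7 and Gm50595. Of those tested only Snx11, a sorting nexin gene beyond Hoxb1, passed, at -0.92 (SE 0.16; limma, adjusted p = 0.0136). This single call stands beside 10.5% of all genes tested that passed. Evx1 and Evx2, the homeobox neighbours of the 5' ends of the Hoxa and Hoxd clusters, were well above background on no array. The antisense transcript Hoxa11os, read by its own probe, differed by 0.50 and did not pass (limma, adjusted p = 0.529).

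The partners and regulators of Hox genes were read from lists, whose counts stand beside 6.64% higher and 3.81% lower and a median of 0.03 over all genes tested. None of the 9 TALE cofactors, the PBX, MEIS and PKNOX proteins that bind DNA with Hox proteins, passed (limma; 1 higher and 0 lower at an unadjusted p under 0.05), and their median was 0.13. Pbx4 was nearest, at 0.59 (limma, adjusted p = 0.0979), followed by Pbx3 at -0.50 (adjusted p = 0.221). Among Cdx genes and cluster-related homeobox genes, 4 of 10 were tested and none passed (limma; 0 higher and 1 lower at an unadjusted p under 0.05). The lowest p-values were for Gbx2 at -1.03 (limma, adjusted p = 0.107) and Gbx1 at -0.99 (adjusted p = 0.209). Cdx2 and Cdx4, which drive central and posterior Hox genes, were well above background on no array. Cdx1 was so on all 3 wild-type and all 3 null arrays, at -0.57 (limma, adjusted p = 0.4).

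Of 16 regulators of the hindbrain and of retinoic acid, 5 were higher and 0 lower, with a median of 0.27 (limma; 6 higher and 1 lower at an unadjusted p under 0.05). Egr2, which drives Hoxa2 and Hoxb2 in the hindbrain and is also an immediate early gene, had levels of -7.19, -5.96 and -6.99 in wild type and -4.11, -3.6 and -4.24 in null. It rose without overlap by 2.73 (SE 0.35; limma, adjusted p = 0.00493), while its target Hoxa2 was at -0.40 and Hoxb2 at -0.07. The retinoic acid-degrading enzymes rose by 1.51 for Cyp26a1, 1.35 for Cyp26b1 and 2.05 for Cyp26c1 (limma, adjusted p = 0.0160, 0.00996 and 0.0170). Cyp26c1 was well above background on 1 wild-type and all 3 null arrays and Egr2 on 2 and 3, so both met the filter partly through the group where they were high. Rarb, a retinoic acid receptor and target, rose by 0.99 (limma, adjusted p = 0.0173, or 0.0935 when blocked on slide). Rarb was named after its value was seen.

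Of 23 tested Polycomb genes, which keep Hox genes silent, 2 were higher and 0 lower, with a median of -0.09 (limma; 3 higher and 2 lower at an unadjusted p under 0.05). These were Jarid2, at 0.80 (limma, adjusted p = 0.0402), and Ezh1, at 0.70 (adjusted p = 0.0418). Blocked on slide, their limma adjusted p was 0.174 and 0.206. None of 13 tested Trithorax genes, which keep Hox genes active, passed (limma; 2 higher and 1 lower at an unadjusted p under 0.05). Dpy30 was at -0.64 (limma, adjusted p = 0.0705) and Kdm6b at 0.60 (adjusted p = 0.0923).

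Of 11 tested genes linked to Hox function in the pharynx and heart field, 0 were higher and 1 lower, with a median of 0.24 (limma; 4 higher and 2 lower at an unadjusted p under 0.05). Ripply3, a pharyngeal repressor, fell by 1.24 (limma, adjusted p = 0.0294, or 0.0814 when blocked on slide).

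Markers of the tissues that could carry central Hox genes were set beside these values. Their counts too stand beside 6.64% higher and 3.81% lower over all genes tested. Of the 7 tested tail bud markers, 3 were higher (T, Tbx6 and Cyp26a1) and 2 lower (Nkx1-2 and Dll1), and their summed linear level, relative to the 75th percentile, was 2.19 to 2.89 in wild type and 3.48 to 4.60 in null. Fgf8, which did not pass (0.90; limma, adjusted p = 0.0667) and is also a pharyngeal gene, made up most of that sum, with 1.16 to 1.84 in wild type and 2.05 to 3.35 in null. The other 6 tail bud markers summed to 1.03 to 1.10 and 1.23 to 1.43. Hes7, the brightest of these 6, had mean levels of -0.62 in wild type and -0.64 in null. The next brightest, Cyp26a1, which is also in the retinoic acid list, went from -3.04 to -1.53. Within that list Cdx2 and Wnt3a were well above background on no array and Msgn1 on 1 wild-type array. T was well above background on 1 wild-type and all 3 null arrays, and Nkx1-2 on all 3 wild-type arrays and 1 null array. Both thus met the filter partly through the group where they were high. Of 10 somite markers 1 was higher (Tbx6), with sums of 3.02 to 4.21 in wild type and 3.87 to 5.24 in null. Of 6 tested neural tube markers 1 was higher (Sox3) and 2 lower (Nkx6-1 and Tubb3), with sums of 4.33 to 5.03 and 4.62 to 6.38.

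Of 10 neural crest markers 1 was higher (Tfap2a), with sums of 12.7 to 15.6 in wild type and 12.0 to 16.6 in null. Of 10 lateral plate markers 1 was higher (Wt1) and 1 lower (Osr1), with sums of 20.1 to 23.6 and 16.9 to 20.2. Of 10 endoderm markers 1 was higher (Sox17) and 1 lower (Nkx2-1), with sums of 4.84 to 5.98 and 5.28 to 5.51. None of the 10 heart muscle markers passed (limma; 0 at an unadjusted p under 0.05), with sums of 1330 to 1550 and 1310 to 1650. Blocked on slide, the limma adjusted p of Tbx6, Dll1, Sox3, Tubb3, Tfap2a, Osr1 and Nkx2-1 was 0.0605 to 0.148, past the threshold for none of them, while the other marker genes named as higher or lower still passed. The part of these tissues in the Hox values was not tested.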

How the data were processed

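Total RNA of each pool was labelled with Cy3 and hybridised to 1-colour Agilent arrays, per the labels' protocols. The deposited scanner files hold a processed signal intensity per spot, background-corrected by Agilent Feature Extraction 10.7.3.1 (design 026655), per the file headers. The deposited value table holds log2 values made by the authors for 24158 probes, 40 of the 43 Hox probes among them. Against the scanner values its columns correlated at r of at least 0.9994 and how it was centred is not stated. It served as an alternative.

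From the intensity, the log2 value was taken and the 75th percentile of the non-control spots of the same array subtracted with R 4.3.3, leaving out outlier spots and averaging spots of a probe. Probes well above background on at least 3 of 6 arrays were kept, and the brightest kept probe stood for its gene. Symbols came from the RefSeq table through accession numbers. Genes were tested with limma 3.58.1 and Benjamini-Hochberg over 21800 genes at 0.05, two-sided, after the script was tested on simulated data. Probes without a symbol were grouped by the systematic name that the array gives them. The members and lists were chosen with earlier results of these data known. Members that passed, did not overlap or changed most in a cluster and direction are given with all values, except 1 member that is not reported here by itself and stays in the counts and medians, and of each list up to 4 called genes, or the 2 of lowest p. Hox members were also fitted probe by probe over 26848 probes, where 3 of 28 passed. Alternatives were quantile, median and no scaling, normexp background, filters, probe averaging, array weights, prior, the authors' table, the slide as a block and leaving out each pool. Replicate numbers are slide numbers. Same-numbered samples did not deviate in the same direction, with r of -0.41, -0.09 and -0.41. The values thus show no positive correlation by number. Same-numbered arrays share a slide, and negative r does not show them to be independent. Correction of the background used the median signal for normexp.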

Additional observations from a re-analysis of the deposited data

Results flagged for a closer look

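Hoxb9 was well above background on null pool 1, at a level of -6.37, and on no wild-type array. It did not pass the filter on dim probes and is outside the comparison, and with no filter it passed the limma test at 1.27 (adjusted p = 0.0293). In that fit 13 of 39 members, some of them detected on no array, were higher and 0 lower at an unadjusted p under 0.05 (limma). Hoxc10 was well above background on null pool 3, at -4.93, and on no wild-type array, and it too was left out by the filter. With no filter it did not pass, at 1.74 (limma, adjusted p = 0.291). Both were well above background on a single array of the null side. With 3 pools a group, no test for a single outlying array was run.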

How the results depend on the processing

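Against the 3 of 25 Hox genes called, 1 of 17 was called with probes well above background on all 6 arrays. That filter left Hoxb8 and Hoxd8 untested. Array weights gave 5 of 25 (4 higher, 1 lower, adding Hoxa7 at 0.81 and Hoxb5 at -0.97). No scaling gave 0 of 25, where limma adjusted p for Hoxd1, Hoxd8 and Hoxb8 was 0.0549, 0.0765 and 0.0877. Calls over all genes also moved with array weights and with no scaling, as given below. Leaving out 1 pool gave 0 to 2 of 23 to 25 tested. Probe by probe, against 3, the counts were 1 on all 6 arrays, 7 with array weights and 1 with no scaling, and 0 to 3 without 1 pool. Hoxd8 stayed called in 12 of the 14 alternatives that tested it, losing the call with normexp (0.55, limma adjusted p = 0.0750) and no scaling, and Hoxd1 stayed called in 9 of 18 and Hoxb8 in 7 of 17. Hoxb8 lost the call with quantile normalization (limma adjusted p = 0.0629), median scaling (0.0505), no filter (0.0820) and the authors' table (0.0537). No alternative turned the sign of these 3.

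With the slide as a replicate block 2 Hox genes were called, by gene and by probe. In all, 742 genes were called against 2279, with 4 list genes against 8 and 6 marker genes against 13. Same-numbered samples share a slide but their deviations were not positively correlated. With no filter on dim probes the 3 counts were 1037, 4 and 8, and the Hox genes called were Hoxd8 and Hoxb9. Array weights gave 3817 genes and 14 list genes, and no scaling gave 4 list genes. Leaving out 1 pool gave 795 to 1842 genes, 3 to 7 list genes and 4 to 12 marker genes. Median scaling moved the median of all genes from 0.03 to -0.11 and the split of calls from 1448 higher and 831 lower to 1105 and 1399, and no scaling moved them to -0.45, 276 and 1432. The median of the Hoxb genes became -0.24 with median scaling, -0.32 on all 6 arrays and -0.59 with no scaling, and ran from -0.23 to -0.04 without 1 pool. That of Hoxa genes became 0.33 with normexp. That of Hoxd genes became -0.11 on all 6 arrays and ran from -0.12 to 0.71 without 1 pool, lowest without wild-type pool 3. That of Hoxc genes ran from -0.54 to 0.34. That of members 1 to 4 became -0.84 with no scaling. No member numbered 9 to 13 was left on all 6 arrays.

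Members near 0 turned sign, none of them called. Hoxa6 and Hoxb6 were at -0.03 and -0.03 with quantile normalization, -0.03 and -0.06 with median scaling, -0.03 and -0.04 in the authors' deposited table and -0.38 and -0.41 with no scaling, which also gave -0.27 for Hoxa13. Normexp gave 0.09 for Hoxa5, 0.35 for Hoxa9, 0.30 for Hoxc12, 0.41 for Hoxc6 and 0.09 for Hoxd3, and array weights gave 0.02 for Hoxb2 and 0.02 for Hoxc12. Without 1 pool the ranges were -0.34 to 0.49 for Hoxa6, -0.12 to 0.24 for Hoxb6, -0.80 to 0.07 for Hoxa9, -0.15 to 0.91 for Hoxa13, -0.24 to 0.17 for Hoxb2, -0.52 to 0.34 for Hoxc12, -0.90 to 0.50 for Hoxc6, -0.63 to 0.20 for Hoxd3 and -0.79 to 0.11 for Hoxd4. No scaling, and the alternatives of the marker lists, were chosen after seeing the data. The cause of these moves was not tested. Signal near background limits the 12 members of the dimmest class.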
